A study of Mus musculus with 12 samples.

Results

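Glucose enters the cardiomyocyte and is broken down to pyruvate and lactate through transporters and enzymes, described here by 10 of their genes, the transporter genes Slc2a1 and Slc2a4, and the enzyme genes Hk1, Hk2, Gpi1, Pfkm, Aldoa, Pgk1, Pkm and Ldha. They were taken by gene symbol alone, and are 10 of the 55885 genes listed for the series. All 10 were among the 13815 genes that passed a filter on low values, 3 or more hearts with a TPM of 1 or higher. RNA had been sequenced from 12 heart samples of male C57BL/6 mice, 8 weeks old at the start, with 3 samples, here called hearts, in each of 4 groups. The Saline group held wild-type mice, described as untreated in the labels and as given saline in the methods. The CDDP group held wild-type mice given cisplatin, a platinum drug that crosslinks DNA, at 6 mg/kg into the peritoneum on days 1, 8 and 15. The STING-/- group held mice without the innate immune adaptor STING (genotype Tmem173-/-) and without cisplatin, and the STING-/-+CDDP group held such mice given the same 3 injections. Hearts were collected on day 22. The knockout is a line bought on the C57BL/6J background, and neither the labels nor the methods restrict it to a cell type.

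GLUT1, the product of Slc2a1, carries glucose into cells without a hormonal signal, while GLUT4, the product of Slc2a4, waits in vesicles and moves to the surface of muscle cells after insulin or contraction. The adult heart burns mainly fatty acids and uses glucose as a flexible second fuel. Hexokinase traps glucose in the cell, phosphofructokinase is the main control point of the pathway, and lactate dehydrogenase joins its end to lactate.

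Levels are in TPM, a transcript abundance corrected for gene length and scaled to 1 common sum in every heart, so that genes can be set beside each other. The number of reads under a value is not kept in this unit and depth is unknown. Genes were compared as log2(TPM + 1) with limma, two-sided, and a gene was counted as changed at an adjusted p under 0.05 over all tested genes. The methods describe separate mice in each group, but neither they nor the labels tie the sequenced samples to single animals, so that p-values measure the spread between these samples. The tissue was heart by its markers, with the summed TPM of 6 cardiomyocyte genes between 21572 and 44506, against 3.05 to 15.96 for 7 skeletal muscle genes. Sting1 itself was at 5.62 to 22.1 TPM in the wild-type hearts and at 2.87 to 5.96 in the hearts of STING-/- mice, so that the ranges touched. CDDP heart 1 stood apart, with the lowest cardiomyocyte sum and a sum of 6 neutrophil genes of 1117 TPM, against at most 84.3 in any other heart. The summed TPM of 4 atrial genes ran from 310.2 to 38939 and was highest in Saline heart 2. Macrophage genes (5) summed to 248 to 325.2 TPM in Saline and to 63.8 to 147.2 in CDDP hearts, though Cd68 among them overlapped. Endothelial genes (5) summed to 484.5 to 634.7 and 339.9 to 419.7, though Pecam1 overlapped (136.4 to 191.2 and 137.7 to 204.0). The sums of fibroblast (706 to 1736 and 965 to 2064) and fat genes overlapped. Dcn made up most of the fibroblast sum and overlapped, as did Pdgfra. Col1a1 (21.8 to 82.5 TPM in Saline and 4.88 to 12.7 in CDDP hearts) was lower in every CDDP heart. So were Col1a2 (41.4 to 131.6 and 13.2 to 33.6) and Lum (42.65 to 132.4 and 10.6 to 29.5). Because bulk tissue was measured, fewer cells of a type and less RNA per cell cannot be told apart.

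In the Saline hearts Aldoa was the most abundant of the 10 genes, at 1615 ± 96.5 TPM (SD, n = 3), and Slc2a1 the least, at 6.45 ± 1.93 TPM. Between them came Ldha at 560.4 ± 54.4, Pkm at 495.2 ± 85.5, Pfkm at 296.4 ± 38.7, Pgk1 at 288.9 ± 12.6, Gpi1 at 238.7 ± 34.9, Slc2a4 at 144.2 ± 4.13, Hk1 at 50.3 ± 7.37 and Hk2 at 50.1 ± 8.53 TPM. In this order Ldha and Pkm, Pfkm and Pgk1, and Hk1 and Hk2 overlapped in their single hearts, and the other neighbours did not. The 10 genes together summed to 3471 to 4019 TPM in the Saline hearts, 3640 to 4322 in the CDDP hearts, 3290 to 4013 in the STING-/- hearts and 3200 to 3631 in the STING-/-+CDDP hearts. Every STING-/-+CDDP heart was below every CDDP heart in this sum, by a small gap, and the other pairs of groups overlapped. Without Aldoa the STING-/-+CDDP and CDDP hearts overlapped (1617 to 1809 against 1640 to 2002 TPM). They also overlapped without mitochondrial genes (4206 to 4755 against 4744 to 5490) and with median-of-ratios scaling (3122 to 4145 against 3350 to 4407).

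**Figure D1:**
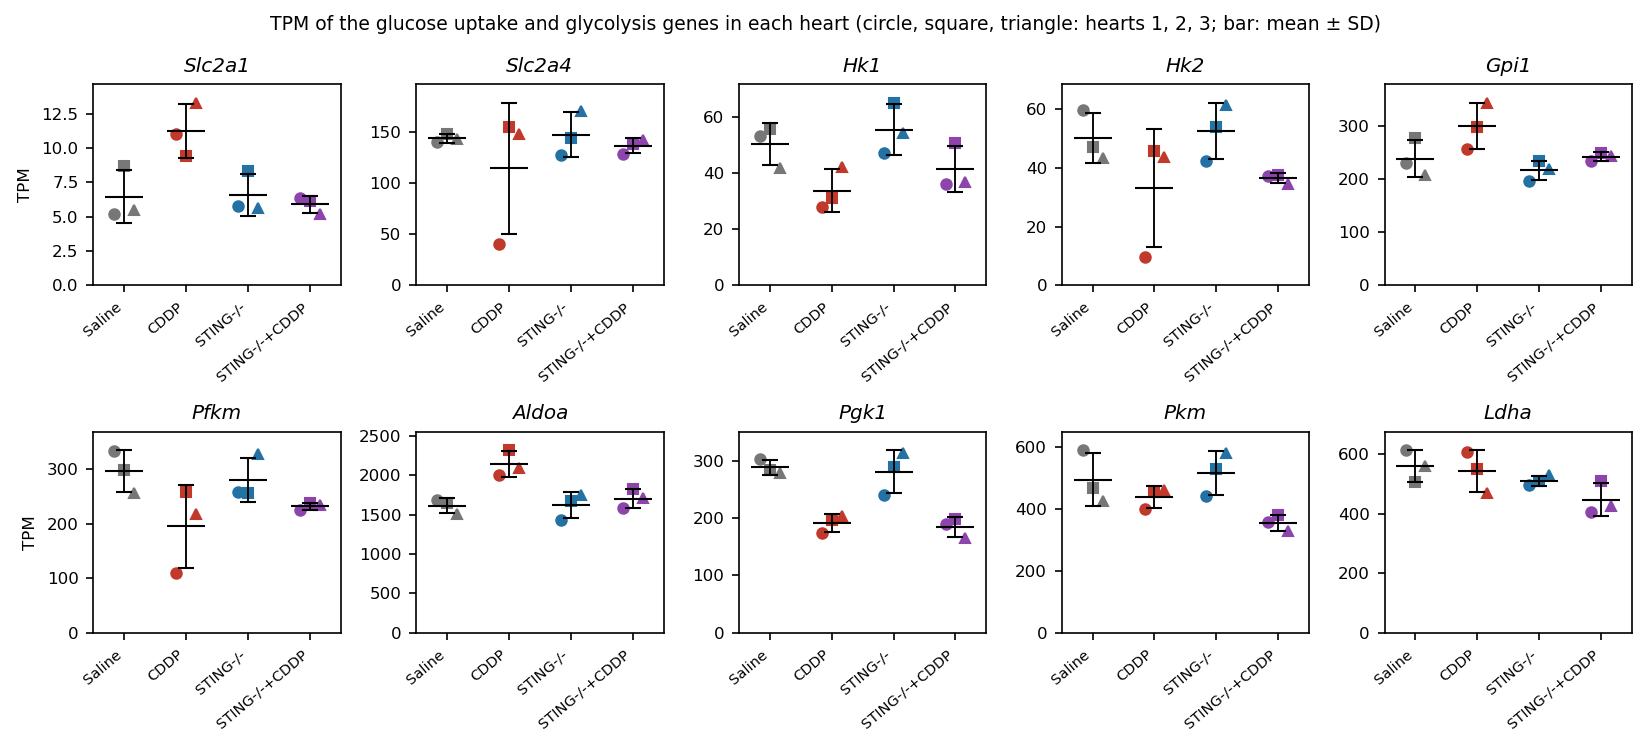
TPM (vertical axis, linear, from 0) of each of the 10 genes in the 3 hearts of every group; circles, squares and triangles are hearts 1, 2 and 3, and the bar gives the mean ± SD. The CDDP hearts lie above all Saline hearts for Slc2a1 and Aldoa and below them for Pgk1, and the circle of CDDP heart 1 is the lowest of the 12 hearts for Slc2a4, Hk1, Hk2 and Pfkm.

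The first comparison asked which of these genes differ in the heart after cisplatin in wild-type mice. Slc2a1 and Aldoa rose and Pgk1 fell. These 3 of 10 genes (30%) compare with 18.9% of all tested genes, of which 8.52% rose and 10.4% fell. The median log2 fold change of the 10 was -0.36, against -0.00 over all tested genes. The same 3 genes had CDDP hearts that did not overlap with the Saline hearts, as was the case for 32% of all tested genes (14.9% higher, 17.1% lower). A further 3 of the 10, Hk1, Pfkm and Gpi1, had an unadjusted p under 0.05 by limma and failed the adjustment.

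Slc2a1 lies on chromosome 4 of GRCm38 from 119108711 to 119137983 on the plus strand. Saline hearts 1 to 3 held 5.19, 8.68 and 5.49 TPM of it, CDDP hearts 1 to 3 held 10.99, 9.41 and 13.3 TPM. All CDDP hearts were above all Saline hearts, though the gap between Saline heart 2 and CDDP heart 2 was small. The log2 fold change was 0.73 with a standard error of 0.21 (95% interval 0.27 to 1.20, adjusted p = 0.0341 by limma). The call did not survive leaving out Saline heart 1 (adjusted p = 0.129), Saline heart 3 (0.102), CDDP heart 1 (0.0654) or CDDP heart 3 (0.101) in limma, with log2 fold changes of 0.61, 0.65, 0.74 and 0.61, nor a fit without the filter (0.0662) or of the Saline and CDDP hearts alone (0.111). In each group the heart with the highest atrial sum was also the heart with the highest Slc2a1, namely Saline heart 2, CDDP heart 3, STING-/- heart 2 and STING-/-+CDDP heart 1. With the atrial genes as a covariate, added after the values were seen, the log2 fold change of Slc2a1 was 0.63 (adjusted p = 0.0122 by limma). The endothelial and macrophage sums were lower in the CDDP hearts, though Pecam1 and Cd68 overlapped, as given above. The part of these cells in the level of Slc2a1 was not tested.

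Aldoa encodes aldolase A, the muscle form of the enzyme that splits fructose bisphosphate into a pair of trioses. It lies on chromosome 7 from 126795234 to 126800751 on the minus strand. Saline hearts held 1688, 1651 and 1506 TPM, and CDDP hearts 2000, 2320 and 2095 TPM. All CDDP hearts were again the higher ones, by a log2 fold change of 0.40 (standard error 0.11, adjusted p = 0.0294 by limma). The call was lost in limma without Saline heart 1 (adjusted p = 0.0665), Saline heart 3 (0.0937), CDDP heart 2 (0.0761) or CDDP heart 3 (0.0583), and with median-of-ratios scaling (0.0897), no filter (0.0794), no trend in eBayes (0.0627) or the Saline and CDDP hearts alone (0.107). A second gene entry with the same symbol was at 0.52 TPM or below in every heart and was not used.

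Pgk1 encodes phosphoglycerate kinase, which makes the first ATP of the pathway's payoff phase, and lies on chromosome X from 106187100 to 106203699 on the plus strand. It stood at 303.1, 284.7 and 279.0 TPM with saline, and at 173.8, 196.6 and 203.8 TPM with cisplatin. All CDDP hearts were below all Saline hearts, and neither group was widely spread. The log2 fold change was -0.59 (standard error 0.13, adjusted p = 0.0105 by limma), and the call held with every single heart left out, at adjusted p-values of at most 0.0469. It was lost when only the Saline and CDDP hearts were fitted (adjusted p = 0.0506 by limma).

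The promoters of these 3 genes are shown because hypoxia-inducible factor, a known activator of glycolytic genes, binds DNA at cores of the letters ACGTG or GCGTG. The windows run from 250 bases before to 50 bases after a RefSeq transcript start in GRCm38.p6, on the strand of the gene, and capitals mark every ACGTG or GCGTG on either strand (read as CACGT or CACGC on the other), overlapping ones merged.
Slc2a1, chr4:119108495-119108794, plus strand: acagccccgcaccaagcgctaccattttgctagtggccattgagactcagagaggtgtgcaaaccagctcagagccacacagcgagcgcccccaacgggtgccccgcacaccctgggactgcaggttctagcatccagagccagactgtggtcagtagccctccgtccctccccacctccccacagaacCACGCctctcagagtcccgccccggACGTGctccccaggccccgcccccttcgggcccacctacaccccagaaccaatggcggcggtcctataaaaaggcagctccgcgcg
Aldoa, chr7:126799205-126799504, minus strand: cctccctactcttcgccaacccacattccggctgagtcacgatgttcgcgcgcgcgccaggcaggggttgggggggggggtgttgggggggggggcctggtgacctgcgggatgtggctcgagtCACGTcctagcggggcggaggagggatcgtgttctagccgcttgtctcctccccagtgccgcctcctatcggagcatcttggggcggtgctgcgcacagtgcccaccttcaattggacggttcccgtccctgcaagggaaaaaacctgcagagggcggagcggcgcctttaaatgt
Pgk1, chrX:106186850-106187149, plus strand: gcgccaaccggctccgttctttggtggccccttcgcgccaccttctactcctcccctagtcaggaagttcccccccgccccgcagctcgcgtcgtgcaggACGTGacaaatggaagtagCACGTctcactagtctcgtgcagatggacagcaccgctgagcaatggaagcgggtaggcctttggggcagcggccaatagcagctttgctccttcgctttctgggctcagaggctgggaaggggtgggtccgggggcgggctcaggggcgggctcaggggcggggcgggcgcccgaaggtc
Slc2a1 held 2 such stretches, Pgk1 held 2, and this window of Aldoa held 1. Aldoa has 3 listed starts, of which a second, overlapping one shares that stretch and the outermost holds none. RefSeq listed 17 windows for 9 of the 10 genes, and Slc2a4 had no window in the table. A core stood in 12 of the 17 windows and in at least 1 window of 8 genes, Gpi1 being the exception, against 43.8% of all 32851 listed windows. Windows of 1 gene can overlap, a match in letters is not a bound site, and a window without a match says only that these letters are not in it.

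The remaining members did not pass the test after cisplatin in wild-type mice. The GLUT4 gene Slc2a4 (chromosome 11, 69942539 to 69948188, minus strand) stood at 140.7, 148.8 and 143.2 TPM with saline and at 40.9, 155.8 and 148.0 TPM with cisplatin. CDDP heart 1 was far below all others, while the other two lay in or above the Saline range. The log2 fold change was -0.55 (standard error 0.39, adjusted p = 0.348 by limma) and 0.07 without CDDP heart 1. The gene's direction thus rests on 1 heart, the one with the high neutrophil and low cardiomyocyte sums, though Tnnt2 was not low there. The part of neutrophils and cardiomyocytes in the low value of Slc2a4 was not tested.

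Hexokinase 1 and hexokinase 2, encoded by Hk1 (chromosome 10, 62268855 to 62379908, minus strand) and Hk2 (chromosome 6, 82725025 to 82774454, minus strand), catalyse the entry step. Hk1 stood at 53.3, 55.8 and 41.9 TPM with saline and at 27.9, 31.1 and 42.3 TPM with cisplatin, so that only CDDP heart 3 reached into the Saline range. Its log2 fold change was -0.57 (standard error 0.20, adjusted p = 0.0670 by limma), and it passed without CDDP heart 3 (-0.74, adjusted p = 0.0342) and in 4 other settings. Hk2 stood at 59.7, 47.0 and 43.5 TPM with saline and at 9.80, 45.7 and 43.8 TPM with cisplatin. Again CDDP heart 1 alone was far below the rest, and the log2 fold change of -0.84 had a standard error of 0.44 (adjusted p = 0.202 by limma) and was -0.15 without that heart.

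Gpi1, which encodes glucose-6-phosphate isomerase, the enzyme of the second step, lies on chromosome 7 from 34201330 to 34230336 on the minus strand. It stood at 230.5, 277.0 and 208.7 TPM with saline and at 257.3, 298.7 and 344.0 TPM with cisplatin. Saline heart 2 lay above CDDP heart 1, and the log2 fold change of 0.33 (standard error 0.14) did not pass (adjusted p = 0.125 by limma). With median-of-ratios scaling Gpi1 passed at 0.34 (adjusted p = 0.0481 by limma). Pfkm, the muscle form of phosphofructokinase (chromosome 15, 98092589 to 98132451, plus strand), stood at 333.7, 299.3 and 256.4 TPM with saline and at 110.1, 258.3 and 217.3 TPM with cisplatin. The 2 lower CDDP hearts lay below the Saline range and the other one just inside it, and the log2 fold change was -0.68 with a standard error of 0.26 (adjusted p = 0.0846 by limma). It was -0.31 without CDDP heart 1, and passed at -0.92 without CDDP heart 2 (adjusted p = 0.0281 by limma).

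Pkm, which encodes the muscle forms of pyruvate kinase (chromosome 9, 59656368 to 59679375, plus strand), and Ldha, which encodes the muscle chain of lactate dehydrogenase (chromosome 7, 46841475 to 46855627, plus strand), overlapped between the groups. Pkm stood at 590.8, 468.8 and 426.1 TPM with saline and at 399.5, 456.1 and 460.7 TPM with cisplatin (log2 fold change -0.16, 95% interval -0.49 to 0.16). Ldha stood at 614.5, 505.6 and 561.1 TPM with saline and at 609.6, 549.9 and 470.3 TPM with cisplatin (log2 fold change -0.05, 95% interval -0.34 to 0.24). The number of members called after cisplatin moved with the settings. It was 5 under quantile normalization, where Hk1 and Pfkm joined, 1 without Saline heart 1, without Saline heart 3 or without the filter, and 0 when only the Saline and CDDP hearts were fitted.

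**Figure D2:**
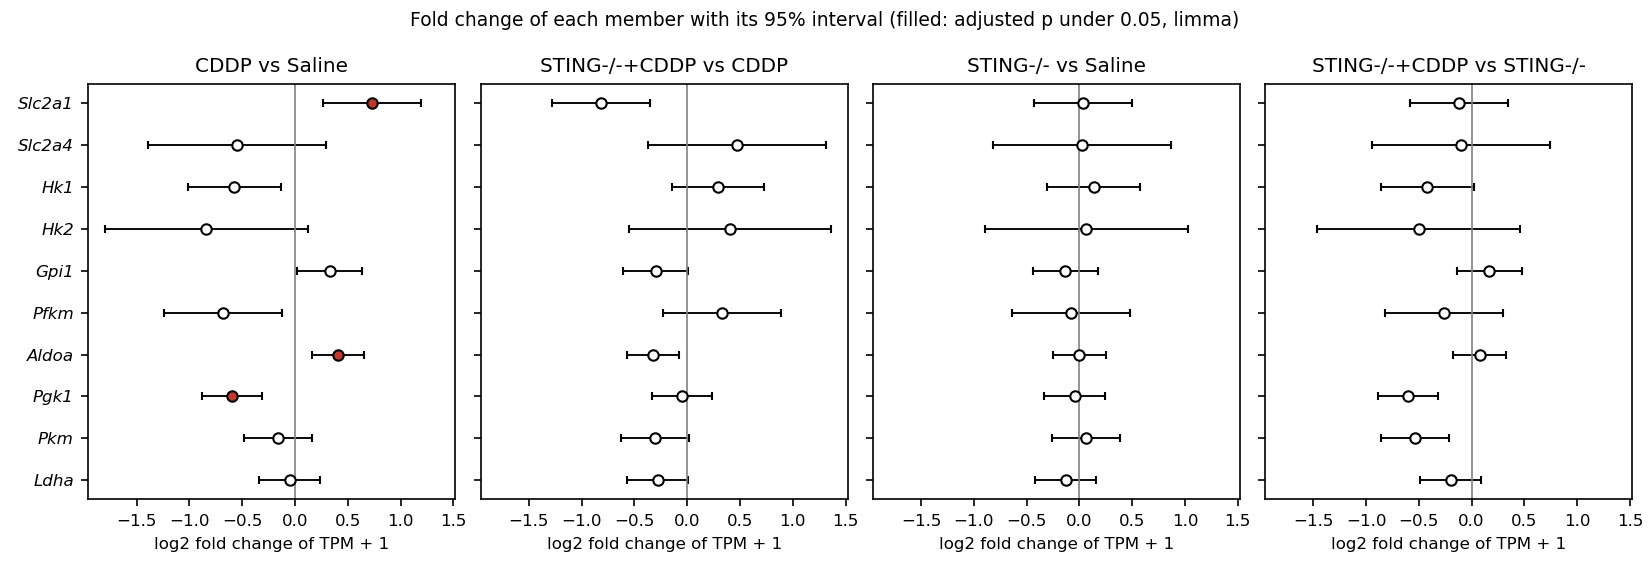
Log2 fold change of TPM + 1 (horizontal axis) of each gene in 4 comparisons, with the 95% interval of limma; filled points passed an adjusted p of 0.05. Filled points occur in the comparison of CDDP with Saline alone, for Slc2a1 at 0.73, Aldoa at 0.40 and Pgk1 at -0.59, and the widest intervals are those of Hk2 and Slc2a4.

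The second comparison asked how the hearts of STING-/- mice differed from wild-type hearts when both had received cisplatin. None of the 10 members passed, against 1.22% of all tested genes (0.362% higher, 0.854% lower), and 2 of the members, Slc2a1 and Aldoa, had an unadjusted p under 0.05 by limma. Both were lower in the STING-/-+CDDP hearts. Slc2a1 was at 6.38, 6.13 and 5.20 TPM there, all below the 3 CDDP hearts given above and within the range of the Saline hearts. Its log2 fold change was -0.82 (standard error 0.21, adjusted p = 0.0816 by limma). It passed under scaling by the median of ratios, under quantile normalization and with the atrial covariate, where the log2 fold change was -0.70 (adjusted p = 0.0416 by limma). Aldoa was at 1577, 1822 and 1710 TPM in the STING-/-+CDDP hearts, again below every CDDP heart (log2 fold change -0.33 with a standard error of 0.11, adjusted p = 0.148 by limma).

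Gpi1, at 233.7, 249.1 and 244.4 TPM, and Pkm, at 359.2, 379.1 and 327.7 TPM, were also below every CDDP heart, which makes 4 of 10 members, against 15.6% of all tested genes lower in every heart, 7.12% higher in every heart and 22.7% without overlap in either direction. Their log2 fold changes were -0.30 for both (adjusted p = 0.269 for Gpi1 and 0.280 for Pkm by limma). The median log2 fold change of the 10 members was -0.16, against -0.09 over all tested genes. Scaling by the median of ratios moved the latter to 0.00. Pgk1 was at 190.6, 198.9 and 164.7 TPM, among the CDDP hearts, with a log2 fold change of -0.05 (95% interval -0.34 to 0.23). Slc2a4 at 129.1 to 143.0 TPM, Hk1 at 36.3 to 50.8, Hk2 at 34.4 to 37.5, Pfkm at 224.4 to 237.2 and Ldha at 405.5 to 511.3 TPM all overlapped with the CDDP hearts. For Slc2a4, Hk2 and Pfkm the higher mean in the STING-/-+CDDP hearts rested on CDDP heart 1, without which the log2 fold changes were -0.15, -0.29 and -0.03 in place of 0.47, 0.40 and 0.33.

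The third comparison took the knockout without cisplatin. None of the 10 members passed against 0.0724% of all tested genes (0.029% higher, 0.0434% lower), and 0 had an unadjusted p under 0.05 by limma. Their log2 fold changes between STING-/- and Saline hearts lay between -0.13 for Gpi1 and 0.14 for Hk1. Every member overlapped between the groups, while 7.64% of all tested genes did not (2.76% higher, 4.88% lower). Slc2a1 was at 5.75, 8.34 and 5.61 TPM in the STING-/- hearts, nearly the Saline values, with a 95% interval of the log2 fold change from -0.43 to 0.50. The interval of Aldoa, at 1436, 1673 and 1750 TPM, ran from -0.25 to 0.25, and that of Pgk1, at 239.9, 289.6 and 314.6 TPM, from -0.33 to 0.24. For Slc2a4 (-0.82 to 0.87) and Hk2 (-0.89 to 1.02) the intervals were wide, and differences within them cannot be told from 0.

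The fourth comparison took cisplatin within the STING-/- mice. None of the 10 members passed, against 0.934% of all tested genes (0.253% higher, 0.68% lower), and 2, Pgk1 and Pkm, had an unadjusted p under 0.05 by limma. The median log2 fold change of the 10 was -0.23, against -0.11 over all tested genes, and scaling by the median of ratios moved the latter to 0.01. Pgk1 was below every STING-/- heart in all 3 STING-/-+CDDP hearts, by a log2 fold change of -0.60 (standard error 0.13, adjusted p = 0.0599 by limma). This value and the -0.59 in wild-type mice rest on separate samples. The call appeared with mitochondrial genes left out, under quantile normalization, with weights for the hearts and without CDDP heart 1.

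Pkm was at 440.5, 527.8 and 581.7 TPM in the STING-/- hearts, all above the STING-/-+CDDP hearts (log2 fold change -0.53 with a standard error of 0.15, adjusted p = 0.128 by limma). Hk2, at 42.4, 54.0 and 61.3 TPM, and Pfkm, at 257.6, 255.7 and 327.0 TPM in the STING-/- hearts, were likewise lower in every STING-/-+CDDP heart. With Pgk1 and Pkm this made 4 of 10 members, against 16.9% of all tested genes lower in every heart, 7.28% higher in every heart and 24.2% without overlap in either direction. The log2 fold change of Hk2 was -0.50 (standard error 0.44) and that of Pfkm -0.26 (standard error 0.26), neither past the test. Slc2a1 (log2 fold change -0.12, 95% interval -0.58 to 0.35), Slc2a4 (-0.10), Hk1 (-0.42), Gpi1 (0.17), Aldoa (0.08) and Ldha (-0.20) overlapped between the groups.

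The difference between the cisplatin effects of the 2 genotypes was tested as an interaction. None of the 10 members passed by limma, against 0.00724% of all tested genes, and Slc2a1 alone had an unadjusted p under 0.05. Its interaction term, the effect in STING-/- mice minus that in wild-type mice, was -0.85 (standard error 0.30, adjusted p = 0.366 by limma). For Aldoa it was -0.33 (standard error 0.16, adjusted p = 0.449), and for Pgk1 -0.01 with a 95% interval from -0.41 to 0.40. Thus the rise of Slc2a1 and Aldoa in wild-type mice was not shown to differ from the change in STING-/- mice.

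The other enzymes of glycolysis were listed beside the members. Of 19 genes, 13 were tested, and in CDDP against Saline hearts 0 rose and 5 fell by limma, that is 38.5% against the 18.9% of all tested genes. Of the genes that fell, Pgam2, Eno3 and Bpgm act after the triose step. Pgam2, the muscle phosphoglycerate mutase, stood at 732.6, 746.4 and 581.9 TPM with saline and at 249.4, 397.8 and 444.3 TPM with cisplatin (log2 fold change -0.95, adjusted p = 0.00921 by limma). Eno3, the muscle enolase, was at 1180, 837.3 and 939.3 TPM against 511.4, 683.5 and 467.6 (log2 fold change -0.83, adjusted p = 0.00764 by limma). Both groups were apart in each case, with CDDP heart 1 the lowest heart for Pgam2. Bpgm, whose product makes bisphosphoglycerate in red blood cells, lay between 16.04 and 18.4 TPM with saline and between 6.68 and 9.40 with cisplatin (log2 fold change -1.06, adjusted p = 0.00229 by limma). The summed TPM of 5 red blood cell genes moved with it, from 4146 to 9317 in the Saline hearts against 42.0 to 1271 in the CDDP hearts, and their part in the fall of Bpgm was not tested.

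Pfkl, the liver form of phosphofructokinase (log2 fold change -0.62, adjusted p = 0.0312), and the triose-phosphate isomerase gene Tpi1 (-0.47, adjusted p = 0.0385) also fell by limma. Tpi1 ranged from 503.0 to 561.5 TPM with saline and from 303.2 to 438.4 with cisplatin. Gapdh, the most abundant glycolytic gene at 2854 to 3468 TPM over the 12 hearts, had a log2 fold change of 0.11 with a standard error of 0.10, and overlapped between the groups. Eno1 (-0.14) and Pgam1 (-0.22), the general forms of enolase and of the mutase, did not pass either.

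**Figure D3:**
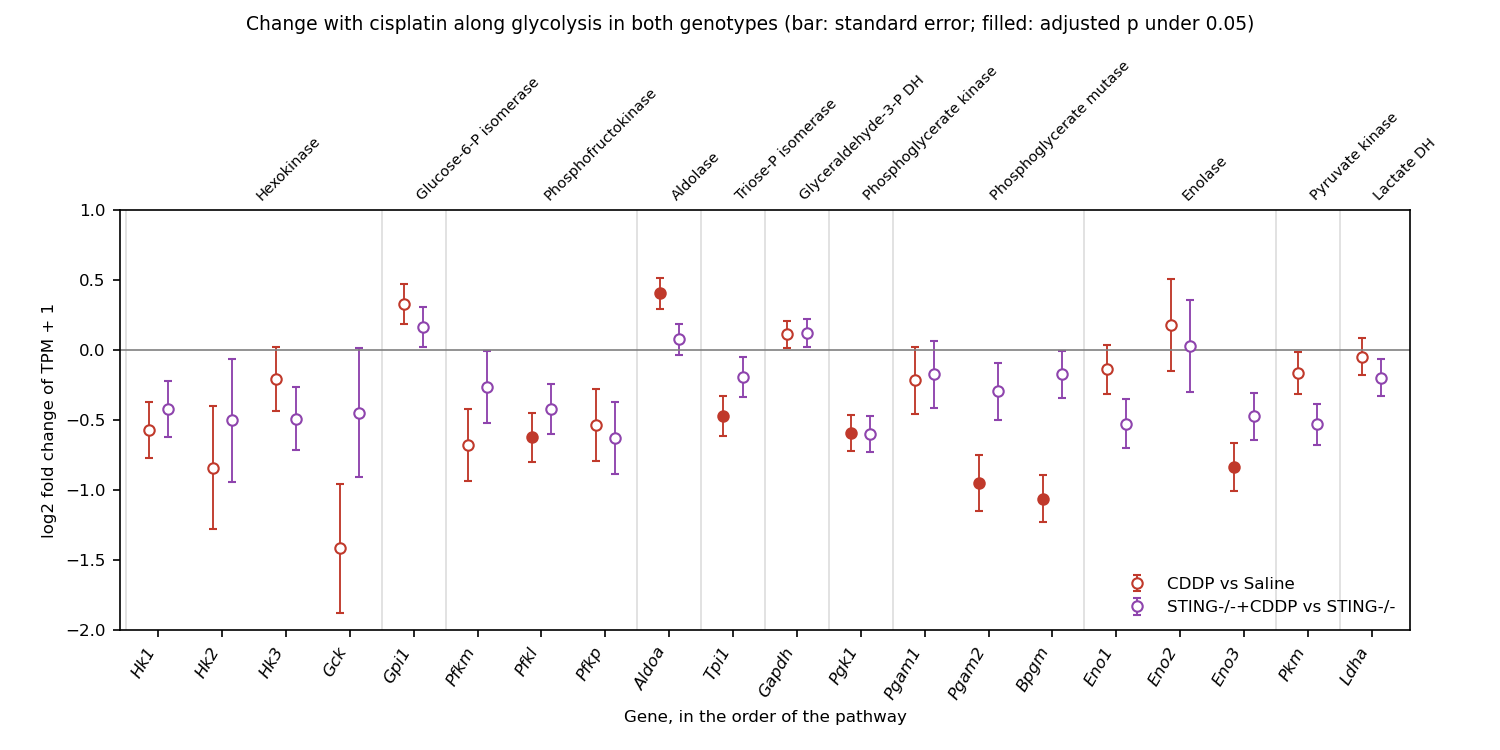
Log2 fold change of TPM + 1 with its standard error (vertical axis) for the tested glycolytic genes in pathway order, for cisplatin in wild-type mice (red) and in STING-/- mice (purple); filled points passed an adjusted p of 0.05. Aldoa at 0.40 is the filled point above 0, the filled points below 0 are Pfkl, Tpi1, Pgk1, Pgam2, Bpgm and Eno3, and no purple point is filled.

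How the hearts split their transcripts between isoforms was computed as a share of TPM within each heart, which no scaling between hearts can change. The exact permutation test of 3 hearts against 3 cannot give a two-sided p below 0.10. Over 4 shares and 4 comparisons, 4 of 16 reached 0.10, with a lowest Benjamini-Hochberg value of 0.4, so none passed. Slc2a1 made up 3.56%, 5.51% and 3.69% of the summed TPM of Slc2a1 and Slc2a4 with saline, against 21.2%, 5.70% and 8.24% with cisplatin. The CDDP hearts were all higher, and the mean difference of 7.45 percentage points fell to 2.71 without CDDP heart 1. In the STING-/-+CDDP hearts the share was 4.71%, 4.22% and 3.51%.

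Ldha made up 32.9%, 32.7% and 32.0% of the summed TPM of Ldha and Ldhb, the chain typical of heart, in the Saline hearts. In the CDDP hearts the share was 38.7%, 26.9% and 25.2%, with CDDP heart 1 above all Saline hearts and the others below them. STING-/- hearts had shares of 31.5%, 29.4% and 28.7%, all below the Saline hearts (exact permutation p = 0.10). STING-/-+CDDP hearts had 24.5%, 26.4% and 22.9%, all below the STING-/- hearts (exact permutation p = 0.10). Hk2 made up 45.7% to 52.9% of the summed TPM of Hk1 and Hk2 with saline, against 26.0%, 59.5% and 50.9% with cisplatin. Pfkm held 77.2% to 87.3% of the phosphofructokinase TPM over all 12 hearts.

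**Figure D4:**
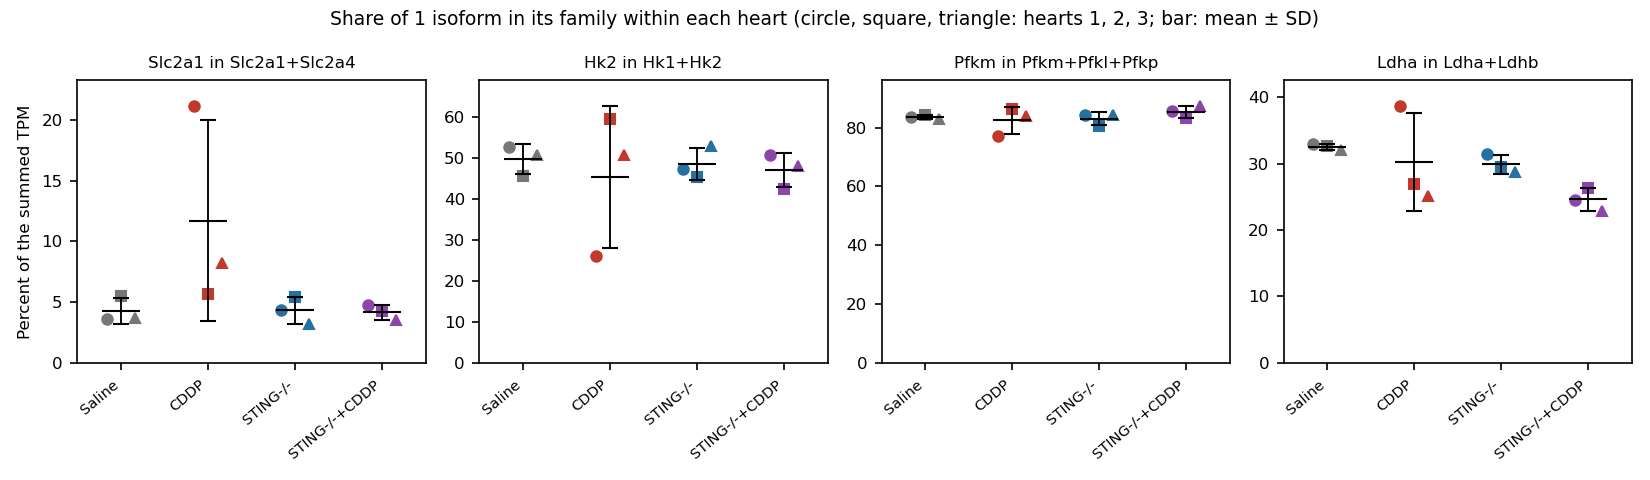
Percent of the summed TPM of a family (vertical axis, linear, from 0) taken by Slc2a1, Hk2, Pfkm and Ldha in each heart; circles, squares and triangles are hearts 1, 2 and 3, and the bar gives the mean ± SD. CDDP heart 1 is the highest or the lowest heart in each panel, at 21.2%, 26.0%, 77.2% and 38.7%.

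The lists around the pathway were read the same way. Over all 142 tested genes of the other lists, the enzymes above included, 15 rose and 19 fell in CDDP against Saline hearts, 23.9% against 18.9% of all tested genes. Of 24 genes of GLUT4 traffic and insulin signalling, 3 rose and 1 fell. Irs2, an adaptor of the insulin receptor, stood at 5.46, 3.91 and 3.43 TPM with saline and at 9.81, 25.5 and 20.95 TPM with cisplatin (log2 fold change 1.83, adjusted p = 0.00189 by limma). In the STING-/-+CDDP hearts it was at 4.43, 4.36 and 4.51, below every CDDP heart (log2 fold change -1.76, adjusted p = 0.0216 by limma). The latter call was lost without CDDP heart 3 or any 1 of the STING-/-+CDDP hearts, at adjusted p-values of up to 0.0946, and with no filter or only the compared groups, at up to 0.0936.

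Insr, the insulin receptor (0.82), and Aspscr1, which tethers GLUT4 vesicles (0.72), rose on the log2 scale, and the vesicle GTPase gene Rab8a fell by 0.68. Among 6 tested genes that control fructose bisphosphate, Pfkfb3, whose product makes the activator of phosphofructokinase, rose by 1.35, and Pfkfb4 was lower by a log2 fold change of -0.79. Pfkfb3 was at 25.2, 8.48 and 14.7 TPM in the CDDP hearts, so CDDP heart 1 was the highest, against 3.85 to 6.61 in the Saline hearts. None of 5 tested genes for other glucose transporters passed.

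Of 13 tested genes of lactate and redox shuttles, Ldhd, the D-lactate dehydrogenase, rose (log2 fold change 1.04) and Slc16a7, a monocarboxylate carrier, fell (-1.26). Slc16a7 ranged from 3.74 to 6.32 TPM with saline and from 0.73 to 1.81 with cisplatin. Of 15 genes of pyruvate oxidation, 4 fell and 1 rose. The falls were in subunits of pyruvate dehydrogenase, Pdhb (-0.92), Dlat (-0.79) and Pdhx (-0.67), and in the mitochondrial pyruvate carrier gene Mpc2 (-0.64). The subunit genes Pdha1 (0.10) and Dld (-0.28) and the other carrier gene Mpc1 (0.27) did not pass. Pdhb ranged from 500.5 to 593.4 TPM with saline and stood at 210.4, 358.7 and 333.4 with cisplatin. Pcx, pyruvate carboxylase, was the gene that rose (1.17), from 6.43 to 8.15 TPM up to 12.3 to 20.9.

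Of 25 tested glycogen genes, Phka1, a subunit of phosphorylase kinase, rose (0.95), and the targeting subunits Ppp1r3c (-1.39) and Ppp1r3d (-0.84) fell. Of 8 genes of the pentose phosphate pathway, Rpia fell (-0.60). Among 10 genes of the hexosamine and polyol branches 4 rose and 1 fell. Khk, the fructose kinase, stood at 17.6, 23.7 and 15.9 TPM with saline and at 56.1, 52.0 and 40.03 TPM with cisplatin (log2 fold change 1.33, adjusted p = 0.00103 by limma). It also rose in the STING-/- mice, from between 19.3 and 21.1 TPM to 43.8, 34.3 and 37.4 TPM (log2 fold change 0.90, adjusted p = 0.0391 by limma), the one listed gene to pass there. That call was lost without any 1 of the STING-/- or STING-/-+CDDP hearts or without CDDP heart 2, at adjusted p-values of up to 0.154, and with no filter (0.081). Gfpt2 (1.29), which starts hexosamine synthesis, Oga (1.01), which removes the sugar from proteins, and Sord (0.52) rose, and the aldose reductase gene Akr1b3 fell (-0.83).

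Of 23 genes listed as transcription factors of glycolysis and GLUT4, with oxygen sensors and other regulators among them, 4 rose and 3 fell. The immediate early genes Nr4a1 (1.85) and Nr4a3 (1.41) rose, with Myc (1.18) and Mlxip (0.55), a glucose-sensing factor. Egln3 (-1.95) and Egln1 (-0.62), prolyl hydroxylases that mark hypoxia-inducible factor, and Esrra (-0.69) fell. Egln3 was at 61.4, 18.0 and 27.0 TPM in the Saline and at 5.18, 8.75 and 8.58 in the CDDP hearts. Nr4a1 stood at 27.3, 12.2 and 7.71 TPM with saline, at 60.9, 31.9 and 74.2 with cisplatin, and at 8.03, 8.78 and 7.68 with cisplatin in STING-/- mice. The STING-/-+CDDP hearts were all below the CDDP hearts (log2 fold change -2.55, adjusted p = 0.0216 by limma), a call lost without CDDP heart 1, CDDP heart 3 or any 1 of the STING-/-+CDDP hearts, at adjusted p-values of up to 0.0946, and with no filter (0.064). The comparisons of CDDP with Saline and of STING-/-+CDDP with CDDP share the CDDP hearts. No listed gene passed between STING-/- and Saline hearts.

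Of the 34 genes of these lists that passed in CDDP against Saline hearts, 15 kept an adjusted p under 0.05 with every heart left out in turn, and 19 lost it without at least 1 heart. Of the 15, 9 (Irs2, Bpgm, Slc16a7, Pcx, Dlat, Khk, Oga, Egln3 and Myc) also kept it in every other setting. With only the Saline and CDDP hearts fitted, Pgam2 (adjusted p = 0.0601), Eno3 (0.0553), Ldhd (0.0552), Pdhb (0.0556) and Akr1b3 (0.0525) lost it in limma, and Nr4a1 lost it there and with arrayWeights (up to 0.0698). Leaving out Saline heart 1 took 17 calls (Insr, Aspscr1, Rab8a, Pfkl, Pfkfb3, Pfkfb4, Pdhx, Mpc2, Ppp1r3c, Phka1, Ppp1r3d, Rpia, Gfpt2, Nr4a3, Esrra, Tpi1 and Mlxip), and the 2 others, Sord and Egln1, were lost without Saline heart 2 or CDDP heart 2 and without Saline heart 3 or CDDP heart 1. Saline hearts 2 and 3 took 7 and 11 calls, CDDP hearts 1, 2 and 3 took 9, 8 and 7, and each heart of the STING-/- mice took 1 to 4. The highest adjusted p of a lost call by limma was 0.165, for Mlxip.

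The genes most like the transporters in their pattern over the 12 hearts were found by the root mean square difference of centred log2(TPM + 1) among 11957 genes, as a description. For Slc2a1 these were Rps23-ps1 (0.12), Csnk1d (0.128) and Sec63 (0.131), where the standard deviation of Slc2a1 itself was 0.408. For Slc2a4 they were Rilpl1 (0.158), Car14 (0.16) and Rbm38 (0.161), against 0.529. Processed copies of members, which can share their reads, were at 0.4 TPM or below in every heart. On the opposite strand of Pfkm lies Senp1, at 3.01 to 6.61 TPM, and on that of Aldoa lies Fam57b, at 0.7 to 5.88 TPM, and whether the counting used the strand is not given in the sources used here.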

How the data were processed

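Total RNA of cardiac tissue was sequenced. The submitters' processing notes name fastp, HISAT and RSEM and the build GRCm38.p5, without roles or versions, and the annotation is not given in the sources used here. The authors deposited TPM for 55885 genes in 12 hearts, with group means that were not used. TPM hold no counts, so the depth per heart is unknown and no interval from counts is given. Samples were grouped by their titles.

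Values were fitted as log2(TPM + 1) for 13815 genes with limma 3.58.1 in R 4.3.3, with Benjamini-Hochberg adjustment over all of them. The fit had a coefficient per group, eBayes with a trend and 8 residual degrees of freedom. The procedure was tested on simulated data with 200 genes changed between CDDP and Saline hearts. It recovered 49.7% of log2 changes of 1 and 89.4% of changes of 2, with 4.71% of calls false. Smaller changes were not simulated. TPM are not counts, so no count model was used. The members, lists and tests were chosen with earlier results of these data known. Named are all members, in each list up to 5 genes with the largest change among those that passed, the 3 genes most like each transporter, and copies of members. Gapdh, Pgam1, Eno1, Mlxip, Egln1, Pdha1, Dld and Mpc1 were chosen after their values were seen. A listed item and the results that need it are not reported here. Shares were compared with exact permutation tests. Gene positions are from GENCODE M21 and promoters from RefSeq. Each result was recomputed with 0.1 in place of 1 added, unfiltered, with TPM of 5 as the minimum, and from the groups of a comparison alone. Further settings used median-of-ratios scaling, mitochondrial genes removed before scaling, quantile normalization, eBayes lacking the trend, weighted hearts (arrayWeights), replicate numbers as a block, an atrial covariate, and 1 heart fewer. Figures were drawn with matplotlib 3.10.9.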

Additional observations from a re-analysis of the deposited data

How the results depend on the processing

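Of 1942 values of single genes under the alternatives, 1893 kept their direction and 49 did not, all of the latter values of members. Members were recomputed in every comparison, including those with changes near 0, and the other named genes only where they had passed. These counts therefore do not set the stability of members against that of other genes. The count of members called in CDDP against Saline hearts was 3, and 1 with no filter, 0 with only the compared groups, 5 under quantile normalization and 1 to 3 with a heart left out. In STING-/-+CDDP against CDDP hearts it went from 0 to 1 (Slc2a1) with the median of ratios, quantile normalization or the atrial covariate, which was added after the data were seen. In STING-/-+CDDP against STING-/- hearts it went from 0 to 1 (Pgk1) without mitochondrial genes, under quantile normalization and with arrayWeights, and lay between 0 and 1 with a heart left out. The call of Slc2a1 was lost in 6 of 23 alternatives, that of Aldoa in 8 and that of Pgk1 in 1, and the cause was not tested. The summed TPM of the members, as a log2 difference, moved with the median of ratios from -0.24 to -0.12 in STING-/-+CDDP against CDDP hearts and from -0.12 to 0.02 against STING-/- hearts. Over all tested genes 2610 were called in CDDP against Saline hearts, and 822 with only those groups fitted.

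With all hearts kept, the values that changed sign were as follows. For STING-/-+CDDP against CDDP hearts, Pgk1 was at 0.07 with the median of ratios, 0.02 without mitochondrial genes and 0.10 with quantile normalization. For STING-/- against Saline hearts, the atrial covariate gave -0.15 for Slc2a1, arrayWeights gave -0.06 for Hk2, -0.04 for Aldoa and -0.06 for Pkm, and the median of ratios gave -0.01 for Aldoa. For STING-/-+CDDP against STING-/- hearts, Slc2a1 was at 0.00 with the median of ratios, 0.04 with quantile normalization and 0.08 with the atrial covariate, and Slc2a4 at 0.04 with the median of ratios. The interaction of Pgk1 was 0.12 with the median of ratios, 0.04 without mitochondrial genes, 0.12 with quantile normalization, 0.07 with arrayWeights and 0.04 with the atrial covariate.

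With a heart left out, the log2 fold changes that changed sign ran as follows. In CDDP against Saline hearts, Slc2a4 ran from -0.88 to 0.07 and Ldha from -0.14 to 0.05. In STING-/-+CDDP against CDDP hearts, Slc2a4 ran from -0.15 to 0.80, Hk2 from -0.29 to 0.77, Pfkm from -0.03 to 0.58 and Pgk1 from -0.12 to 0.03. In STING-/- against Saline hearts, Slc2a1 ran from -0.13 to 0.24, Slc2a4 from -0.08 to 0.13, Hk2 from -0.05 to 0.21, Pfkm from -0.20 to 0.01, Aldoa from -0.06 to 0.09, Pgk1 from -0.13 to 0.06 and Pkm from -0.04 to 0.20. In STING-/-+CDDP against STING-/- hearts, Slc2a1 ran from -0.21 to 0.04, Slc2a4 from -0.20 to 0.01 and Aldoa from -0.01 to 0.13. The interaction ran from -0.17 to 0.78 for Slc2a4, from -0.36 to 0.70 for Hk2 and from -0.12 to 0.08 for Pgk1. Shares moved as well, in percentage points. In CDDP against Saline hearts they ran from 2.71 to 10.5 for Slc2a1, -11.4 to 5.36 for Hk2 and -6.52 to 0.257 for Ldha, and in STING-/-+CDDP against CDDP hearts from -10.6 to -2.82, -8.07 to 8.67 and -8.21 to -1.43.

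Of 18 same-numbered pairs of hearts, 4 had deviations correlated above 0.1 (range -0.333 to 0.261). Saline heart 2 and CDDP heart 3, which differ in number, reached 0.431. No pairing by number was thus seen, which does not exclude one. With the replicate number as a block the counts of members called were 3 and, in the other comparisons, 0, as without it. Precision is limited by 3 hearts a group and by a depth that is unknown.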
